A study of Xenopus laevis with 14 samples.

Results

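The forkhead (Fox) and Sox genes measured here are 44 of the 9715 Xenopus laevis genes that a probe set reads under a single gene symbol. They were chosen by name, as symbols that start with fox plus a letter and a number or with sox plus a number. The rule left out foxa1, sox1, sox3 and sox9, and the choice was made with earlier results of these data known. The set holds 33 forkhead and 11 Sox genes under 36 names, because this species keeps many genes as a .L and a .S copy on its separate subgenomes. Of these genes, 42 were measured at tailbud stage NF32 and 41 at stage NF36, with 39 at both. Only NF32 had values for foxh1.L, foxi2.L and foxn4.S, and only NF36 had them for foxr1.L and sox17b.1.L.

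Forkhead proteins bind DNA through a winged helix domain, and Sox proteins through an HMG box that bends the double helix. Embryos reuse both families to set cell identities: FoxA and SoxF factors act in endoderm, FoxF and FoxC factors in mesoderm and mesenchyme, SoxE factors and FoxD3 in neural crest, SoxB and SoxC factors in neural tissue, and FoxI and FoxJ1 factors in ion-transporting and ciliated cells. FoxF1 is best known in the gut for marking the mesenchyme that surrounds the endoderm.

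RNA came from anterior endoderm, the embryonic tissue that forms pancreas, liver and stomach. Control embryos had received 400 pg of GFP mRNA, and the others 400 pg of GFP mRNA with 800 pg of mRNA for Ptf1a, a basic helix-loop-helix transcription factor of pancreas and inhibitory neurons. The mRNA went into the dorsal vegetal blastomeres at the 8-cell stage, with no promoter restricting Ptf1a to a cell type, and its total amount differed along with Ptf1a. Each array holds RNA pooled from about 15 explants, with 3 arrays per group at NF32 and 4 per group at NF36, and no strain is given in the sources used here. Same-numbered GFP and Ptf1a samples came from 1 batch of embryos.

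Values are probe set intensities, given as mean ± SD, and each gene is read on its brightest probe set of the stage. Changes are log2(value + 16) differences, Ptf1a minus GFP, ± SE, a scale that understates the change of dim genes. The threshold was a limma adjusted p below 0.05, adjusted over all probe sets of the stage. A second fit, with the replicate number as a block, compares each Ptf1a sample with the GFP sample of its own embryo batch and is called the paired fit. Intensities cannot be compared between genes or between stages.

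The ptf1a probe set read 7.7 to 18.3 on the GFP arrays and 209.5 to 386 on the Ptf1a arrays at NF32, and 25.5 to 33.3 against 117.2 to 319.4 at NF36. Of 24 measured anterior endoderm markers, which include ptf1a itself and foxa2, foxa4 and sox17a, all exceeded an intensity of 16 in at least 1 group at each stage. On each array only 13.0% to 15.1% of all probe sets at NF32 and 25.4% to 27.5% at NF36 lay below 16. Of these markers 2 were higher and 2 lower at NF32, and 2 were higher and 1 lower at NF36. The paired fit gave 2 higher and 6 lower at NF32, and 6 higher and 8 lower at NF36. Markers of other tissues also moved with the groups. Neuron markers were higher in Ptf1a explants for 18 of 29 genes at NF32 and 7 of 28 at NF36, and epidermis markers for 1 of 20 and 14 of 19. Blood cell markers were lower for 13 of 17 and 6 of 19 genes and heart markers for 8 of 12 and 0 of 12. In the paired fit neuron markers at NF36 were higher for 12 genes and lower for 2, and blood cell markers were lower for 15 and higher for 1. Skeletal muscle markers passed for 0 of 13 genes at either stage (limma without pairing, 10 and 3 at an unadjusted p below 0.05). In the paired fit 2 of them were higher at NF32, and 1 was higher and 1 lower at NF36. Their summed intensities were 379.7 to 3628 in GFP and 4437 to 9600.4 in Ptf1a explants at NF32. In these pooled samples fewer cells of a type and less RNA per cell cannot be told apart.

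At NF32 none of the 42 genes passed, against 3.16% of all probe sets. At an unadjusted p below 0.05, limma gave 11 of the 42, or 26.2%, against 16.2% of all probe sets. That share is not given here for NF36, so no unadjusted count of NF36 in this text can be set against it. In the paired fit of NF32, 9 genes passed, or 21.4%, against 9.22% of all probe sets. The 7 higher genes were sox10.L, sox8.L, foxd3.S, sox11.S, foxc2.L, foxc2.S and foxd2.S, beside 5.03% of all probe sets that were higher. The 2 lower ones were both copies of foxf1, beside 4.19% of all probe sets that were lower. At NF36, 8 of 41 genes passed without the pairing, or 19.5%, against 5.48% of all probe sets: foxe1.L, foxi1.L, foxc1.L, foxc2.L, foxc2.S, foxj1.S and foxi2.S rose and foxp4.S fell. Of all probe sets 3.59% rose and 1.89% fell. The paired fit passed 23 of the 41, 14 higher and 9 lower, or 56.1%, against 23.4% of all probe sets, of which 12.6% were higher and 10.8% lower.

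The median change of the set was near that of all probe sets. It was 0.01 against -0.01 at NF32 and 0.06 against 0.00 at NF36. Groups did not overlap for 12 of 42 genes at NF32, where 21.7% of all probe sets did not, and for 13 of 41 at NF36, where 13.3% did not. The NF36 calls without pairing depended on single arrays. Leaving out GFP replicates 1 to 4 in turn gave 1, 1, 0 and 2 genes past the threshold, and leaving out Ptf1a replicates 1 to 4 gave 5, 3, 6 and 1. These counts run over all 41 genes and include some that had not passed with every array. Each of the 8 genes called with every array held in only 1 to 3 of the 8 fits without 1 array. In the paired fit, leaving out 1 pair gave 12 to 20 of the 41 genes at NF36, again with some not called in the full fit. At NF32 it left 1, 5 and 8 genes without pairs 1, 2 and 3. Quantile normalization ended the calls of foxc2.S and foxi2.S (adjusted p = 0.0646 and 0.0832), and median centring and the mean over probe sets that of foxc2.S (0.0502 and 0.0656). An offset of 64 ended those of foxi1.L, foxi2.S, foxj1.S and foxc2.S (0.0559 to 0.0807), and an offset of 1 that of foxp4.S (0.0821).

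**Figure D1:**
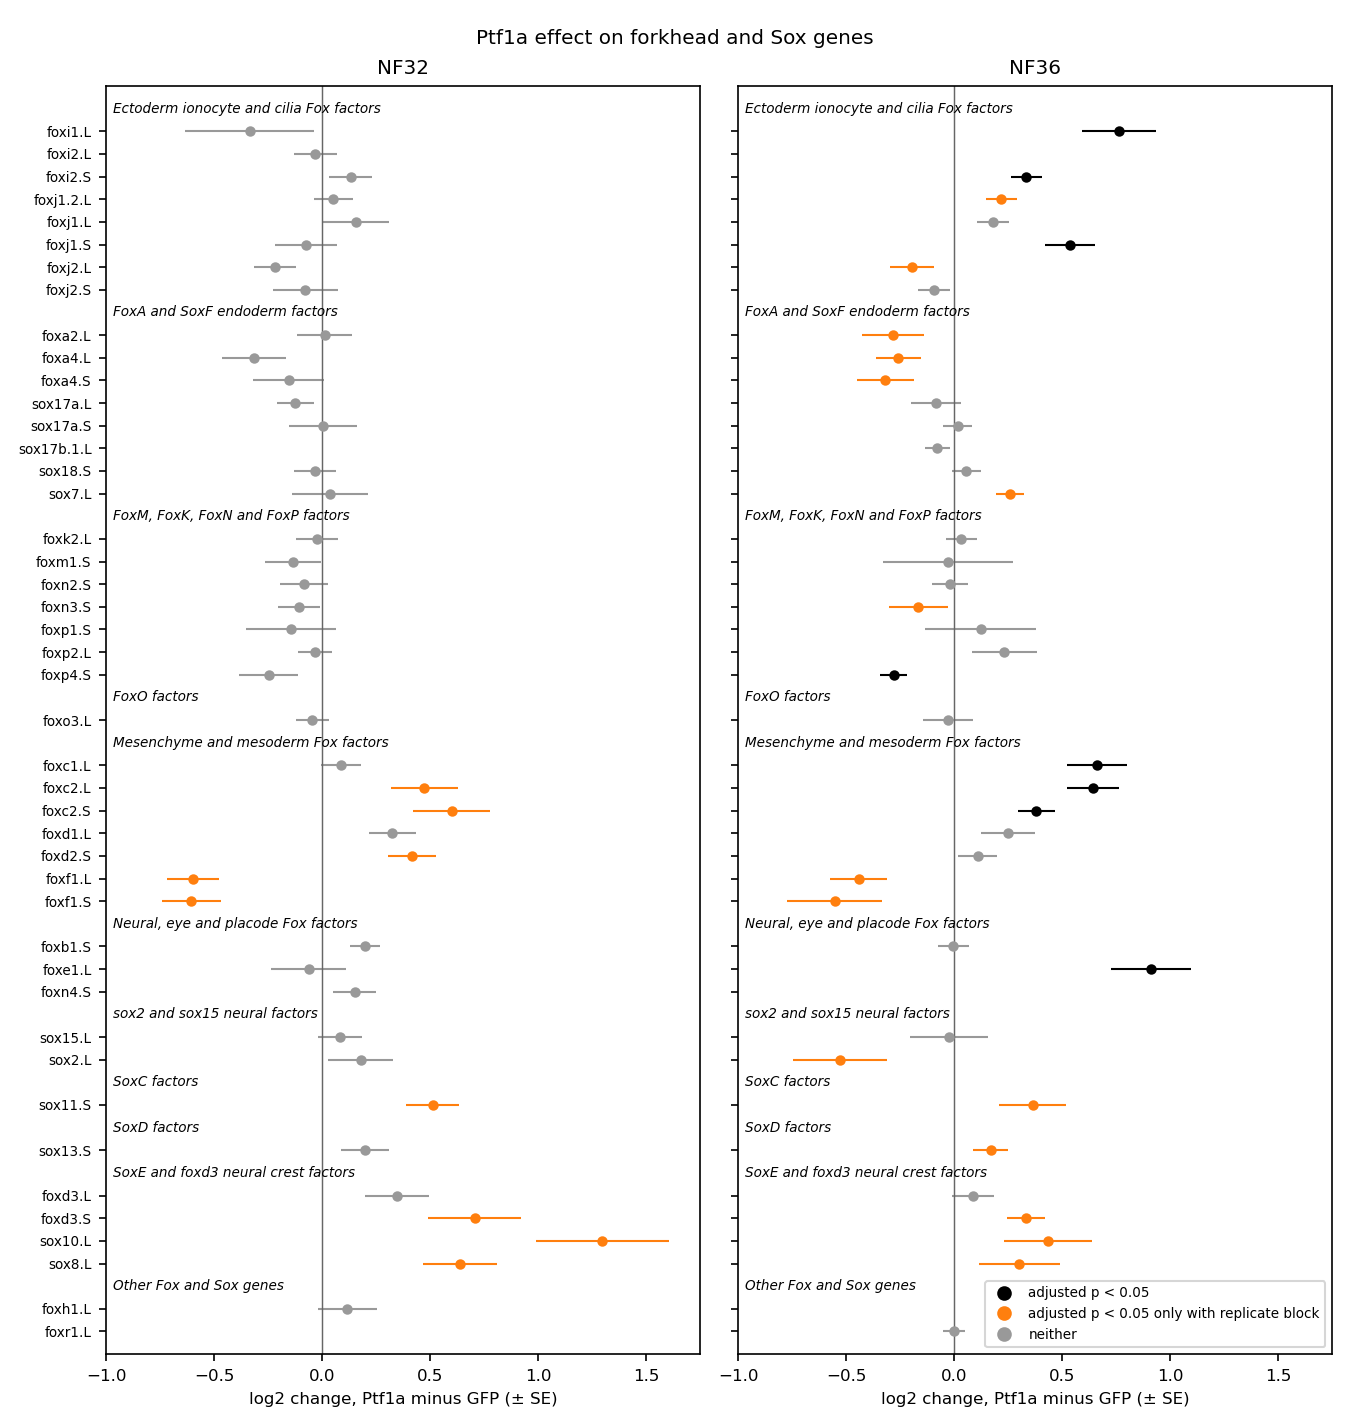
Log2 change (Ptf1a minus GFP, ± SE of the unpaired limma fit, horizontal axis) of each forkhead and Sox gene at NF32 (left, 3 arrays per group) and NF36 (right, 4 per group), ordered by role. Black points passed the threshold, orange points passed only in the paired fit and grey points passed neither; foxf1 copies lie left of 0 and foxc2 copies right of 0 at both stages.

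The mesenchymal forkhead genes split by family. FoxC genes, which act in paraxial mesoderm, head mesenchyme and vessels, were higher in Ptf1a explants, while both copies of foxf1 were lower. At NF36 foxc1.L read 35.3, 40.8, 26.7 and 43.6 on GFP arrays 1 to 4 and 63.3, 79.9, 51.4 and 74.3 on Ptf1a arrays 1 to 4. Every Ptf1a array lay above every GFP array, and foxc1.L rose by 0.66 ± 0.14 (adjusted p = 0.0321). At NF32 its groups overlapped, with 121 ± 14.2 in GFP and 129 ± 2.93 in Ptf1a explants (SD, n = 3; 0.09 ± 0.09, adjusted p = 0.739).

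The related gene foxc2.L read 46.9, 45.9, 41.6 and 58.3 on the GFP arrays of NF36 and 82.6, 95.3, 65.0 and 95.4 on the Ptf1a arrays. These groups did not overlap, and foxc2.L rose by 0.64 ± 0.12 (adjusted p = 0.0227). At NF32 its GFP arrays read 77.5, 49.4 and 74.7 and its Ptf1a arrays 113.1, 91.9 and 90.8, again without overlap. The change there was 0.47 ± 0.16, which did not pass (adjusted p = 0.186) and passed in the paired fit (adjusted p = 0.0448).

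The other copy, foxc2.S, moved the same way at both stages. At NF36 it read 9.2, 8.5, 10.0 and 12.0 in GFP and 17.5, 19.4, 13.1 and 21.5 in Ptf1a explants. It rose by 0.38 ± 0.09 (adjusted p = 0.0436), with no overlap. At NF32 the GFP arrays read 30.4, 15.2 and 24.7 and the Ptf1a arrays 55.3, 38.9 and 36.4, a change of 0.60 ± 0.18 (adjusted p = 0.146, paired 0.0202). The other foxc2.S probe set overlapped at NF36 and passed there only in the paired fit (0.31 ± 0.10, adjusted p = 0.127, paired 0.0163). At NF32 that probe set passed in neither fit (0.55 ± 0.17, adjusted p = 0.168, paired 0.0533). Each of the 3 foxc calls at NF36 held in all 4 paired fits that left out 1 pair, while the foxc2 calls at NF32 held in 1 of 3.

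FoxF1 is the forkhead factor of splanchnic mesoderm and gut mesenchyme, and its gene foxf1.L was bright at both stages. At NF32 it read 232.8, 220.2 and 197.7 in GFP and 134.1, 162.5 and 119.4 in Ptf1a explants. Every Ptf1a array lay below every GFP array. The change was -0.60 ± 0.12, with an adjusted p of 0.0500007 just above the threshold and 0.0132 in the paired fit. At NF36 foxf1.L read 169.3, 165.7, 220.8 and 162.1 in GFP and 124.8, 107.8, 160.9 and 119.3 in Ptf1a explants. These groups too did not overlap, and the change of -0.44 ± 0.13 passed only in the paired fit (adjusted p = 0.0943, paired 0.00221).

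The copy foxf1.S went from 129 ± 17.4 to 79.7 ± 14.6 at NF32 (SD, n = 3; -0.61 ± 0.14, adjusted p = 0.0706, paired 0.0225). At NF36 it read 106.5, 153.8, 169.5 and 100.1 in GFP and 56.1, 92.2, 119.6 and 75.4 in Ptf1a explants. The groups overlapped, yet each Ptf1a array lay below the GFP array of its own batch, and the change was -0.55 ± 0.22 (adjusted p = 0.204, paired 0.00442). Both copies thus fell in the paired fit at both stages. At NF32 these calls held without pair 2 and without pair 3 but not without pair 1, and at NF36 they held in all 4 fits without 1 pair.

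In RefSeq's gene table for assembly Xenopus_laevis_v10.1, foxc2 and foxf1 share a chromosome in both subgenomes, with 23 protein-coding genes between the .L copies and 22 between the .S copies. Their changes ran in opposite directions at each stage on both. The remaining mesenchymal members, foxd1.L and foxd2.S, were above 0 at both stages, and of them only foxd2.S at NF32 passed in the paired fit. It read 17.7 ± 2.89 in GFP and 29.1 ± 5.24 in Ptf1a explants (SD, n = 3; 0.42 ± 0.11, adjusted p = 0.113, paired 0.0392) and is named after its values were seen. That call held in 1 of 3 fits without 1 pair.

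Among 18 measured genes tied to FoxF and FoxC mesenchyme, 2 were higher and 1 lower at NF32, with a median of 0.11, and 3 and 2 in the paired fit. The higher genes were vim.L, the intermediate filament of mesenchyme (0.61 ± 0.09), and the signalling gene bmp4.L (0.49 ± 0.08), and the lower one was the smooth muscle actin acta2.L (-1.07 ± 0.20). At NF36, 2 of 20 passed, both copies of bmp4 (0.70 ± 0.09 and 0.85 ± 0.11 for .L and .S), with a median of 0.24. The paired fit gave 10 higher and 1 lower at that stage. The NF36 change of acta2.L, given after its values were seen, lay above 0 and passed in neither fit (adjusted p = 0.117, paired 0.0549). It read 76.2 ± 38.2 in GFP and 174.1 ± 64.1 in Ptf1a explants there (SD, n = 4). Heart markers, which also belong to splanchnic mesoderm, were lower for 8 of 12 genes at NF32, and for 8 in the paired fit. Their summed intensity there was 2683 to 2991 in GFP and 2312 to 3145 in Ptf1a explants. At NF36 none of the 12 passed in limma without pairing, and 1 was higher in the paired fit. At an unadjusted p below 0.05 there were 8, all of them higher. A change above 0 was seen in 11 of the 12. The part of heart markers in the foxf1 result was not tested.

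**Figure D2:**
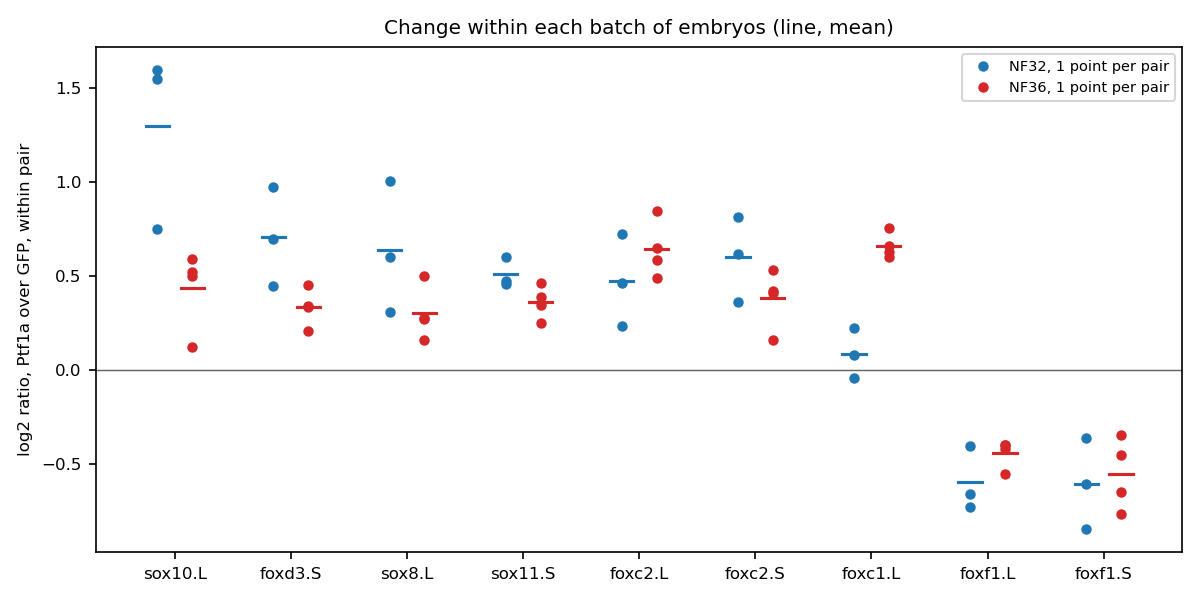
Log2 ratio of Ptf1a over GFP within each embryo batch (vertical axis, log2(value + 16) scale) for 9 forkhead and Sox genes at NF32 (blue, 3 pairs) and NF36 (red, 4 pairs), with the mean as a line. All foxf1 points lie below 0, and all points of sox10.L, foxd3.S, sox8.L, sox11.S and foxc2 lie above 0.

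The neural crest regulators sox10, sox8 and foxd3 were higher in Ptf1a explants in every pair at both stages. Of the whole set, 15 of 42 genes at NF32 and 16 of 41 at NF36 were higher in every pair. The share over all probe sets is not given here. None of the 4 genes of this group passed in limma without pairing, where 3 at NF32 and 1 at NF36 had an unadjusted p below 0.05, and 3 of 4 passed in the paired fit at each stage. The SoxE gene sox10.L, needed for glia and pigment cells, had the largest change of the whole set at NF32. It read 19.8, 23.0 and 35.8 in GFP and 88.6, 49.7 and 140.7 in Ptf1a explants. The groups did not overlap, though the second Ptf1a array lay far below the others (1.30 ± 0.31, adjusted p = 0.0813, paired 0.0115).

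At NF36 the sox10.L arrays read 31.8, 34.5, 16.6 and 42.4 in GFP and 52.6, 60.1, 30.2 and 47.6 in Ptf1a explants. The third pair was low in both groups, so that the groups overlapped while each pair differed in 1 direction (0.43 ± 0.20, adjusted p = 0.294, paired 0.0126). The paired sox10.L call held in 2 of 3 fits without 1 pair at NF32 and 2 of 4 at NF36.

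The other SoxE gene, sox8.L, read 43.7, 25.6 and 24.2 in GFP and 58.0, 47.2 and 64.9 in Ptf1a explants at NF32, without overlap (0.64 ± 0.17, adjusted p = 0.114, paired 0.0412). At NF36 its groups overlapped at 38.5 ± 11.9 and 50.5 ± 10.7 (SD, n = 4; 0.30 ± 0.19, adjusted p = 0.453, paired 0.0169). Its paired call held in 1 of 3 and 2 of 4 fits without 1 pair. Another sox8.L probe set passed in neither fit at NF32 (0.47 ± 0.11, adjusted p = 0.0744, paired 0.0502) and in the paired fit at NF36 (paired 0.0459). The remaining sox8.L probe set passed in the paired fit at both stages (0.0427 and 0.0273). FoxD3, a forkhead repressor that keeps crest cells undifferentiated, was read by foxd3.S at 41.5, 30.4 and 42.9 in GFP and 97.1, 47.3 and 79.4 in Ptf1a explants of NF32. Its groups did not overlap there (0.71 ± 0.22, adjusted p = 0.158, paired 0.0172) or at NF36, where GFP arrays read 29.8 to 34.7 and Ptf1a arrays 37.0 to 53.3 (0.33 ± 0.09, adjusted p = 0.0676, paired 0.00625). The dimmer copy foxd3.L did not pass in either fit, with changes of 0.35 ± 0.15 and 0.09 ± 0.10.

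Other neural crest and glial genes gave a mixed picture. None of 14 passed at NF32 (limma, median 0.17), where 3 had an unadjusted p below 0.05 and 2 passed in the paired fit, and the 2 with the smallest p were snai2.L (0.36 ± 0.12, adjusted p = 0.190) and twist1.L (0.32 ± 0.12, adjusted p = 0.228, paired 0.0293). At NF36, 4 of 14 rose (5 higher and 1 lower in the paired fit), with a median of 0.16: tfap2a.S (0.97 ± 0.14), tfap2a.L (0.80 ± 0.13), pax3.L (0.67 ± 0.09) and msx1.S (0.40 ± 0.09). These are genes of the neural plate border, and tfap2a is also an epidermal gene. The higher sox10, sox8 and foxd3 levels stood beside neuron markers whose summed intensity was 863 to 1059 in GFP and 3145 to 3470 in Ptf1a explants at NF32, and 572.5 to 672 against 842 to 1369 at NF36. Of these neuron markers, 6 of 29 at NF32 and 13 of 28 at NF36 had means below 16 in both groups. In GFP explants of NF32 the neuron markers ranged from nefm.S at 2.97 to tubb2b.S at 290.03. Their part in the SoxE result was not tested.

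Among the Sox genes of neural tissue, sox11 and sox2 moved in opposite directions at NF36. SoxC factors such as Sox11 act in newly formed neurons. At NF32 sox11.S read 262.9, 268.2 and 310.4 in GFP and 366.8, 379.3 and 480.0 in Ptf1a explants, without overlap (0.51 ± 0.12, adjusted p = 0.0834, paired 0.0105). At NF36 it read 145.3, 171.8, 124.4 and 180.1 against 206.6, 222.7, 151.0 and 241.2, so that only the third Ptf1a array fell among the GFP arrays (0.36 ± 0.15, adjusted p = 0.236, paired 0.00431). The paired call held in 2 of 3 fits without 1 pair at NF32 and in all 4 at NF36.

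Sox2 maintains neural progenitors and also marks the foregut. At NF32 sox2.L read 96.1 ± 12.5 in GFP and 112 ± 22.8 in Ptf1a explants (SD, n = 3; 0.18 ± 0.15, adjusted p = 0.664). At NF36 its brightest probe set read 154.8, 220.1, 152.7 and 192.1 in GFP and 117.1, 193.2, 89.4 and 95.6 in Ptf1a explants. The second Ptf1a array lay among the GFP arrays, and the change of -0.53 ± 0.22 passed only in the paired fit (adjusted p = 0.221, paired 0.0219), which held in 2 of 4 fits without 1 pair. Another sox2.L probe set read 119.6, 149.8, 115.4 and 146.1 in GFP and 77.8, 104.5, 57.3 and 60.7 in Ptf1a explants, with no overlap, and passed without pairing (-0.73 ± 0.16, adjusted p = 0.0393). The remaining sox2.L probe set had a change of -0.58 ± 0.19 (adjusted p = 0.121, paired 0.0034), so all 3 were lower in each of the 4 pairs.

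The SoxD gene sox13.S, which codes for a protein without an activation domain of its own, read 65.0 ± 4.27 in GFP and 75.2 ± 8.63 in Ptf1a explants of NF36 (SD, n = 4; 0.17 ± 0.08, adjusted p = 0.302, paired 0.0361). That paired call ended in every fit without 1 pair. The other sox13.S probe set passed in neither fit at NF36 (0.14 ± 0.07, adjusted p = 0.328, paired 0.0938). On its brightest probe set the neurectodermal gene sox15.L changed by less than its SE at NF32 (0.08 ± 0.10) and NF36 (-0.02 ± 0.18). A dimmer sox15.L probe set did not overlap at NF32 but passed in neither fit (0.23 ± 0.09, adjusted p = 0.233, paired 0.154). Of the forkhead genes of brain and retina, foxb1.S, read at an intensity of at most 9.7 throughout, and foxn4.S did not pass, with changes of 0.20 ± 0.07 and 0.15 ± 0.10 at NF32.

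Of 25 genes that work with SoxB1 factors in neural progenitors, 3 rose at each stage and all 25 had a change above 0 at NF32, where the median was 0.43. They were fabp7.L (2.68 ± 0.43), zic1.S (0.79 ± 0.15) and hes5.1.S (0.71 ± 0.11) at NF32. At NF36 they were hes5.1.L (0.63 ± 0.12), cdh2.L (0.61 ± 0.13) and notch1.S (0.50 ± 0.07), with a median of 0.16. Of the 25 genes, 4 at NF32 and 12 at NF36 had means below 16 in both groups, where the offset shrinks changes. The paired fit gave 13 higher genes at NF32 and 9 higher and 1 lower at NF36. The sox2.L level was lower at NF36 beside these rises.

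The ectodermal forkhead genes foxi1, foxi2 and foxj1 were higher at NF36. FoxI1 specifies ionocytes, the proton-pumping cells of the larval skin, and FoxJ1 is the master regulator of motile cilia. Of 7 genes in this group 3 rose at NF36, and at NF32 none of 8 passed in either limma fit. Without pairing none of the 8 had an unadjusted p below 0.05 at NF32. At NF36 foxi1.L read 9.9, 5.9, 4.9 and 12.1 in GFP and 19.4, 15.7, 31.0 and 36.3 in Ptf1a explants. The groups did not overlap, and foxi1.L rose by 0.76 ± 0.17 (adjusted p = 0.0406). At NF32 it ran the other way in all 3 pairs, with 100.0, 184.5 and 186.8 in GFP and 75.6, 159.9 and 129.9 in Ptf1a explants, a change of -0.33 ± 0.30 that did not pass (adjusted p = 0.683, paired 0.0526).

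The early ectodermal gene foxi2.S read 2.7, 2.3, 2.7 and 2.4 in GFP and 5.2, 7.6, 6.6 and 10.3 in Ptf1a explants of NF36. It rose by 0.33 ± 0.07 (adjusted p = 0.0360), at intensities near the bottom of the stage. At NF32 it did not pass (0.13 ± 0.10, adjusted p = 0.611).

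The ciliary regulator foxj1.S read 17.4, 10.0, 12.1 and 15.6 in GFP and 25, 21.1, 27.6 and 35.4 in Ptf1a explants of NF36. Every Ptf1a array was higher, and foxj1.S rose by 0.54 ± 0.12 (adjusted p = 0.0370). At NF32 it was 82.0 ± 16 in GFP and 76.6 ± 9.89 in Ptf1a explants (SD, n = 3; -0.07 ± 0.14, adjusted p = 0.876). The copy foxj1.L and the related foxj1.2.L were likewise above 0 in all 4 pairs of NF36, with 0.18 ± 0.07 and 0.22 ± 0.07, and only foxj1.2.L passed in the paired fit (adjusted p = 0.0415), in 1 of 4 fits without 1 pair. Both were chosen after their values were seen. The broadly expressed foxj2.L went the other way (-0.20 ± 0.10, adjusted p = 0.359, paired 0.0302), and its paired call also held in 1 of 4.

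**Figure D3:**
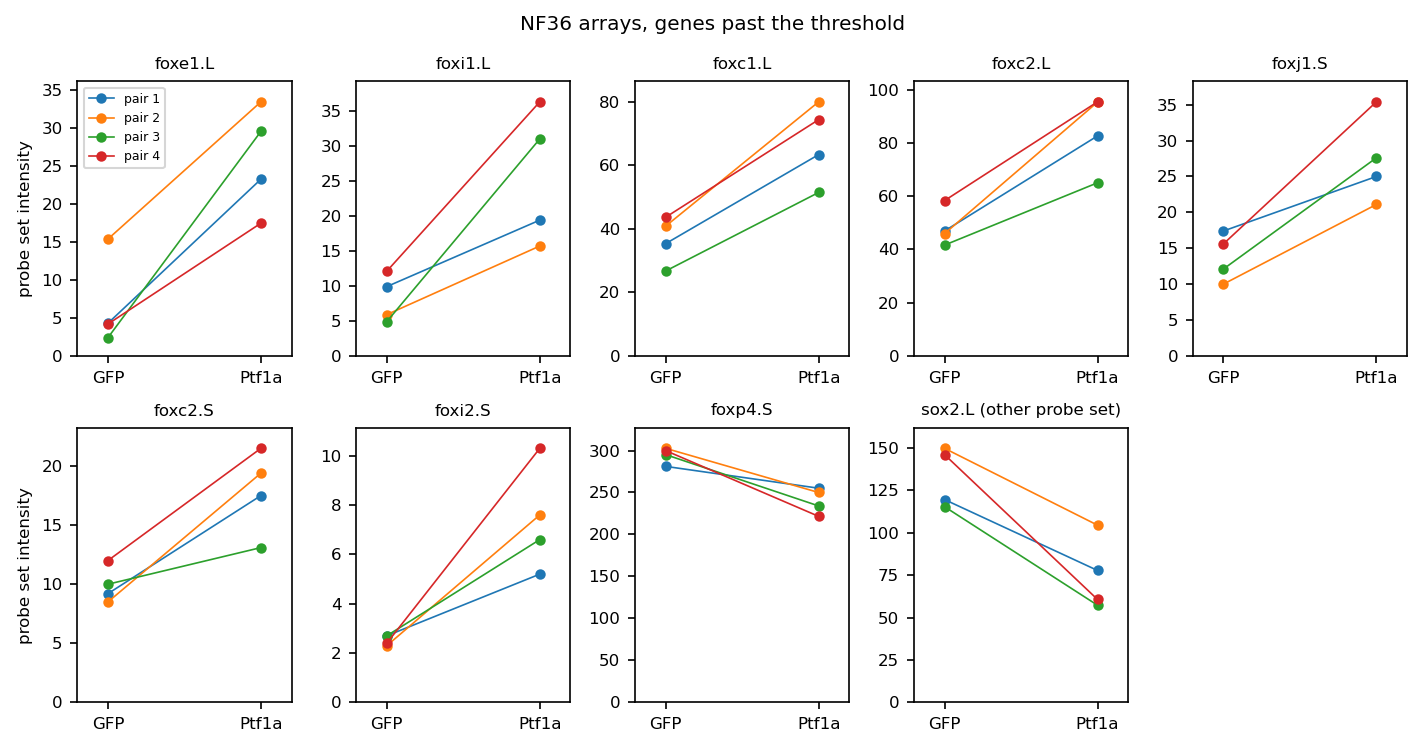
Probe set intensity (vertical axes, linear from 0) on each GFP and Ptf1a array of NF36 for the 8 forkhead genes and the other sox2.L probe set that passed the threshold without pairing, with lines joining arrays of 1 embryo batch. Each Ptf1a array lies above all GFP arrays in 7 genes and below them in foxp4.S and sox2.L.

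Genes that work under these factors moved in part. Of 11 ionocyte genes, 3 rose at NF36: the proton pump subunits atp6v1b1.L (1.28 ± 0.24) and atp6v0a4.L (0.91 ± 0.20) and the carbonic anhydrase ca12.L (1.00 ± 0.20), with a list median of 0.32. The paired fit gave 5 higher and 2 lower, and the lower ones are named after their values were seen. They were the anion exchanger slc4a1.L (-0.76 ± 0.30, adjusted p = 0.207, paired 0.00437) and the carbonic anhydrase ca2.L (-0.38 ± 0.17, adjusted p = 0.258, paired 0.0180). The copy ca2.S lay above 0 and passed in neither fit (0.47 ± 0.24, adjusted p = 0.346, paired 0.0515). The gene slc4a1.L, also a red cell gene, was lower at NF32 (-0.81 ± 0.14), where the list median was -0.14. Of 17 motile cilium genes only rsph1.L, a radial spoke gene, passed at NF36 (0.63 ± 0.13, adjusted p = 0.0335), whereas 12 passed in the paired fit and 16 had a change above 0, with a median of 0.34. At NF32 none of 18 passed in limma, 1 had an unadjusted p below 0.05, 2 were lower in the paired fit, and the median was -0.10.

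Epidermis markers moved beside them. Their summed intensity was 2075 to 3624 in GFP and 5958 to 7534 in Ptf1a explants of NF36, where 14 of 19 were higher with a median of 1.06. At NF32 it was 15137 to 17715 and 15792 to 18790.5, and 1 of 20 passed. Means lay below 16 in both groups for 1 of 20 epidermis markers at NF32 and 2 of 19 at NF36. The part of epidermis markers in the foxi1, foxi2 and foxj1 result was not tested.

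The thyroid and pharynx gene foxe1.L had the largest change of the set at NF36. It read 4.3, 15.4, 2.4 and 4.2 in GFP and 23.3, 33.5, 29.6 and 17.5 in Ptf1a explants. The groups did not overlap, with the second GFP array close to the lowest Ptf1a array, and foxe1.L rose by 0.91 ± 0.18 (adjusted p = 0.0292). Its paired call held in all 4 fits without 1 pair. At NF32 the groups overlapped at 18.9 ± 7.94 and 17.1 ± 4.37 (SD, n = 3; -0.06 ± 0.17, adjusted p = 0.916). Of 8 pharynx and mesenchyme markers at NF36, both copies of the pharyngeal gene tbx1 rose (0.93 ± 0.11 for .L and 0.47 ± 0.09 for .S). The means of tbx1.S lay below 16 in both groups. The median of these markers was 0.38, and the paired fit gave 5 higher and 1 lower. At NF32 none of 9 passed without pairing, and the paired fit gave 2 higher and 1 lower. The part of these markers in the foxe1 result was not tested.

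Endodermal members passed only in the paired fit, and only at NF36. FoxA factors open chromatin at endodermal genes, and Sox17 sets endoderm fate in the early embryo. None of 7 genes at NF32 and none of 8 at NF36 passed in limma without pairing, with 0 and 3 at an unadjusted p below 0.05, and none passed in the paired fit at NF32. At NF36 the paired fit gave 3 lower FoxA genes. The brighter foxa4 copy, foxa4.S, read 61.2, 44.1, 58.1 and 51.4 in GFP and 50.3, 33.0, 46.5 and 31.2 in Ptf1a explants. The groups overlapped while each Ptf1a array lay below its GFP partner (-0.32 ± 0.13, adjusted p = 0.223, paired 0.0124).

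The copy foxa4.L had a change of -0.26 ± 0.10 (adjusted p = 0.212, paired 0.0498) and foxa2.L, named after its values were seen, one of -0.28 ± 0.14 (adjusted p = 0.344, paired 0.0221). The other, dimmer foxa2.L probe set passed in neither fit at NF36 (-0.08 ± 0.14, adjusted p = 0.874, paired 0.246). Of the FoxA calls, that of foxa4.S held in 3 of 4 paired fits without 1 pair, foxa2.L in 1 and foxa4.L in none. The SoxF gene sox7.L read 9.6, 9.7, 9.1 and 11.7 in GFP and 15.1, 16.2, 12.6 and 16.9 in Ptf1a explants. The groups did not overlap, and its change of 0.26 ± 0.07 lay close to the threshold (adjusted p = 0.0568, paired 0.00805). Both copies of sox17a, sox17b.1.L at an intensity of 2.3 to 5.0, and sox18.S had changes between -0.12 and 0.06 at the stages where they were measured.

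SoxF factors other than Sox17 act mostly in vessels, and 12 vessel genes were measured. At NF36 none passed (limma, median -0.01), with 4 at an unadjusted p below 0.05 and 5 in the paired fit, 3 higher and 2 lower. The smallest p there belonged to fli1.S (0.29 ± 0.08, adjusted p = 0.0731, paired 0.0205) and tal1.S (-0.52 ± 0.18, adjusted p = 0.137, paired 0.00607). At NF32 only tal1.S, a gene of blood and vessel precursors, was lower (-0.99 ± 0.17, adjusted p = 0.0299). There cldn5.L passed only in the paired fit (1.05 ± 0.23, adjusted p = 0.0637, paired 0.00253). Its copy cldn5.S lay below 0 and passed in neither fit (-0.40 ± 0.20, adjusted p = 0.419, paired 0.0515). The paired fit gave 1 higher and 2 lower vessel genes at NF32. Blood cell markers were lower for 13 of 17 genes at that stage.

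Of the 7 widely expressed forkhead genes of the FoxK, FoxM, FoxN and FoxP classes, 1 passed without pairing. The transcriptional repressor gene foxp4.S was the single gene to fall at NF36 without pairing. It read 281.1, 302.6, 295.1 and 299.9 in GFP and 255.1, 250.0, 234.0 and 221.6 in Ptf1a explants, with no overlap, and fell by 0.28 on the log2 scale (SE 0.06, adjusted p = 0.0392), and its paired call held in 1 of 4 fits without 1 pair. At NF32 its change was -0.25 ± 0.14 (adjusted p = 0.453). Its relatives foxp1.S and foxp2.L did not pass at either stage, nor did foxk2.L, at 125 ± 6.55 and 129 ± 10.5 at NF36 (SD, n = 4; 0.03 ± 0.07).

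The checkpoint-linked gene foxn3.S passed only in the paired fit of NF36 (-0.16 ± 0.13, adjusted p = 0.611, paired 0.0282), and this call ended in every fit without 1 pair. The mitotic regulator foxm1.S, picked after its values were seen, differed between pairs. The first pair of NF36 read 2.8 and 2.9, and the other arrays 16.9 to 25.5, with a change of -0.03 ± 0.30. Why foxm1.S was low in that pair was not tested. Of FoxM1's mitotic targets none of 21 at NF32 and none of 20 at NF36 passed in either limma fit, with medians of 0.04 at both stages. Without pairing none of these targets had an unadjusted p below 0.05. The smallest p belonged to ccnb3.S (0.27 ± 0.11) and nek2.S (0.25 ± 0.11) at NF32 and to bub1b.L (-0.14 ± 0.09) and birc5.S (0.11 ± 0.07) at NF36. The values of foxh1.L at NF32 (0.12 ± 0.14) and foxr1.L at NF36 (0.00 ± 0.05) did not pass, at intensities of at most 13.1 and 2.7.

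FoxO proteins are switched by insulin signalling through phosphorylation, and foxo3.L was the only FoxO gene measured. Its level did not pass at either stage, with 150 ± 10.8 in GFP and 145 ± 4.25 in Ptf1a explants of NF32 (SD, n = 3; -0.04 ± 0.08) and 125 ± 20.4 and 122 ± 13.7 at NF36 (SD, n = 4; -0.03 ± 0.12). Of 22 FoxO target genes 3 rose at NF32, both copies of the kinase pdk4 and txnip.L, with a median of 0.31. At NF36, 11 of 22 rose and the median was 0.68. The 4 with the smallest p were igfbp1.S (1.74 ± 0.13), pdk4.S (1.05 ± 0.09), pdk4.L (1.33 ± 0.12) and the gluconeogenic gene pck1.L (2.60 ± 0.24). The list's other rises past the threshold, named after their values were seen, included g6pc1.1.L (2.02 ± 0.36), pck1.S (1.87 ± 0.22), g6pc1.2.L (1.68 ± 0.32) and igfbp1.L (1.25 ± 0.12). The rest were sesn1.L (1.05 ± 0.14), txnip.L (0.75 ± 0.11) and gadd45a.S (0.62 ± 0.12). In the paired fit 9 genes were higher and 1 lower at NF32, and 16 higher and 2 lower at NF36. The lower gene at NF32 was g6pc1.2.S (-0.44 ± 0.15, adjusted p = 0.215, paired 0.0390). Those at NF36 were sod2.S (-0.38 ± 0.10, adjusted p = 0.0610, paired 0.00678) and bcl6.S (-0.23 ± 0.06, adjusted p = 0.0849, paired 0.0143). These too were named after their values were seen. Many of these genes also answer to other signals, and FoxO protein activity was not measured.

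Of 8 names with both copies at NF32, 5 had changes of the same sign, and of 7 at NF36, 6 had. The share over all genes with both copies is not given here, so these counts say nothing particular about the set. The exceptions were foxi2, foxj1 and sox17a at NF32 and sox17a at NF36, none of which passed there. Whether a probe set reads 1 copy or both was not tested. The 13 members not named by rule had changes between -0.14 and 0.42 at NF32 and between -0.28 and 0.25 at NF36.

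Whether the Ptf1a effect differed between the stages was tested as a difference of changes in the 39 genes measured at both. No gene passed in limma without pairing, where 1.26% of 9139 genes did, and 6 had an unadjusted p below 0.05, against 8.90%. In the paired fit 5 passed, or 12.8%, against 6.22%, of which 4 were above (4.41% of all genes) and 1 below (1.81%). The rise at NF36 exceeded the change at NF32 for foxi1.L by 1.097 (adjusted p = 0.231, paired 0.0105), for foxe1.L by 0.97 (0.144, paired 0.0106), for foxj1.S by 0.61 (0.217, paired 0.0146) and for foxc1.L by 0.57 (0.231, paired 0.00693). For sox2.L the change at NF36 lay below that at NF32, by -0.71 (0.489, paired 0.0475). The sox10.L difference of -0.86 missed the threshold in both (0.535, paired 0.0505). For foxf1.L, foxf1.S and foxc2.L the difference was 0.16 ± 0.19, 0.05 ± 0.30 and 0.17 ± 0.21.

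**Figure D4:**
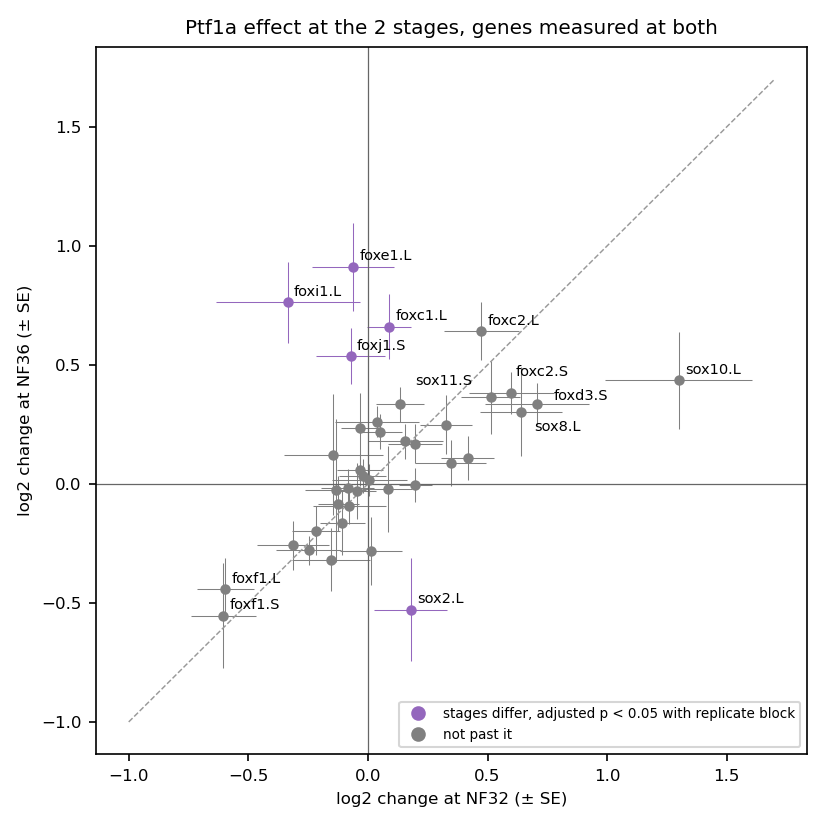
Log2 change (Ptf1a minus GFP, ± SE of the unpaired fit) at NF32 (horizontal axis) and NF36 (vertical axis) for the 39 forkhead and Sox genes measured at both stages, with a dashed line of equal change. Purple points are the 5 genes whose changes differed between stages in the paired fit, 4 above the line and sox2.L below it.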

How the data were processed

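The deposited values are linear intensity values of Affymetrix probe sets with 1 column per array. PLIER is listed per the submitters' processing notes, and its version, its role and the scaling were not given in the sources used here. Array means were 140.2 to 140.4 at NF32 and 100.0 at NF36, so stages were scaled apart and fitted apart. The series text names an earlier chip for NF36, whereas both stages carry identifiers of the same chip. Of the probe sets, 22855 were tested at NF32 and 23614 at NF36, and 4 probe sets naming a member among several symbols were not used. The number of arrays limits the precision.

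Values were taken as log2(value + 16) and tested 2-sided with default eBayes moderation in limma 3.58.1 (R 4.3.3), with Benjamini-Hochberg adjustment. Same-numbered samples share an embryo batch per the series' design text. The correlation of their deviations from group means was 0.711, 0.297 and 0.416 at NF32 and 0.765, 0.670, 0.717 and 0.639 at NF36. Between GFP and Ptf1a samples of different number it reached 0.257 at NF32 and 0.022 at NF36. Paired values therefore stand beside each member's call they change. The fit was tested on simulated data that held no embryo batch effect, so that test did not check the pairing.

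Members, gene lists and alternatives were chosen with earlier results of these data known. Named members are those past the threshold on any probe set, the 6 brightest and the 10 largest changes above the stage median, the 2 smallest p of each role group and the 5 smallest p of the stage difference; each list gives up to 4 genes past the threshold, or its 2 smallest p. All 44 members matched RefSeq's Xenopus_laevis_v10.1 table by gene ID; sequences were not used here. Alternatives were median centring, quantile normalization, other offsets (1, 64), no probe sets dimmer than the 40th percentile, trend and robust settings, the mean over probe sets, a 2-fold minimum and leaving out each array; leaving out each pair was added after seeing the data.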

Additional observations from a re-analysis of the deposited data

Results flagged for a closer look

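In 58 groups of 4 arrays, 5 had an array whose gap to its neighbour exceeded Dixon's 95% critical value, a rate that chance gives in about 1 group of 20. On the GFP arrays of NF36, foxe1.L read 15.4 in the second replicate against 2.4 to 4.3 in the others, foxf1.L 220.8 in the third against 162.1 to 169.3, foxa4.L 14 in the second against 18.2 to 18.9, and sox15.L 42.3 in the first against 64.1 to 68.2. On the Ptf1a arrays, foxb1.S read 9.7 in the first replicate against 5.5 to 6.0.

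The Ptf1a effect differed between NF36 and NF32 with the replicate block, and not without it, for foxi1.L (difference 1.097), foxe1.L (0.97), foxj1.S (0.61), foxc1.L (0.57) and sox2.L (-0.71).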

How the results depend on the processing

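At NF32 the count of 0 genes became 9 with the replicate block, 1 with trend and robust settings, 1 with the mean over probe sets and 0 to 3 without 1 array, and the paired count was 1, 5 and 8 without pairs 1 to 3. The arrays that mattered were Ptf1a replicate 2 (3 genes without it) and GFP replicate 1 (1 gene). At NF36 the count of 8 became 23 with the replicate block, 4 with an offset of 64, 3 without dim probe sets, 0 with a 2-fold minimum and 0 to 6 without 1 array, and the paired count was 20, 12, 14 and 17 without pairs 1 to 4. The stage difference count of 0 became 5 with the replicate block and 0 to 1 without 1 array. The count over the 141 genes of the other lists went from 11 to 36 with the block at NF32 and 0 to 4 without 1 array, and from 24 to 69 and 14 to 30 at NF36. Of the tests of named members under alternatives, none reversed; at NF36, 59 lost and 19 gained the threshold and 374 kept their side, and at NF32, 14 gained it and 395 kept their side. The block changed no call of a named member beyond those given in the text. The causes were not tested. Probe sets near an intensity of 16 or below, such as those of foxi2.S, foxi1.L and foxe1.L in GFP explants of NF36, give changes that the offset shrinks, and few arrays limit the unpaired calls.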
